A study of Mus musculus with 15 samples.

Results

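The genes described here encode the enzymes of transsulfuration and cysteine breakdown, the route by which sulfur from methionine reaches cysteine and then taurine, sulfate and thiosulfate. They are 9 of the 37620 genes in the deposited tables: Cbs, Cth, Cdo1, Csad, Suox, Mpst, Tst, Ethe1 and Sqrdl, the last now also named Sqor. They were chosen by pathway name, with earlier results of these data known, and all 9 symbols matched an Ensembl gene ID.

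Methionine is converted to homocysteine, which cells either methylate back to methionine or pass down the transsulfuration pathway. Cystathionine beta-synthase (Cbs) condenses homocysteine with serine, and cystathionine gamma-lyase (Cth) splits the product to release cysteine. Cysteine dioxygenase (Cdo1) then commits cysteine to oxidation, which leads to hypotaurine through the decarboxylase Csad, or to sulfite, which sulfite oxidase (Suox) turns into sulfate. A separate branch handles hydrogen sulfide and persulfides through Mpst, Tst, Ethe1 and Sqrdl. The whole route is best known from the liver, where homocysteine, cysteine and taurine levels are set in large part.

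RNA came from lung metastases of B16-F10.1, a pigmented mouse melanoma line, grown in male C57BL/6J hosts of 8 weeks that received 100000 cells through a tail vein, 21 days before a diet change of 2 weeks. In order of methionine content the diets were deficient (0%, n = 3), restricted (25% of normal, n = 3), adequate (n = 3) and supplemented (300%, n = 6), the last known from sample labels and not from the design text. Every library comes from tumour of this 1 line, as bulk tissue that can include host lung, so fewer cells of a type cannot be told apart from less RNA per cell. Replicate numbers only name libraries, in accession order. Whether libraries came from different mice is not stated, the labels name no batch, and p-values then reflect the scatter among these libraries, which may be technical.

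Total RNA depleted of ribosomal RNA was sequenced, and libraries held 13107679 to 29994264 estimated counts. Levels are given in CPM, counts set to a common library size after scaling by the trimmed mean of M values. The pigment-cell markers of the label were present throughout, with a summed level of 14110 to 27670 CPM over the 8 melanocyte genes. Lung markers were not even: deficient replicate 3 held 6128 CPM over 8 alveolar type 2 genes, against 46.0 to 1695 CPM in the other 14 libraries, and 1439 against 86.0 to 376 CPM over 8 endothelial genes. That library also held 2079 CPM over 8 macrophage genes, against 147 to 698 CPM, and results that rest on it are given with and without it. A pair of other libraries stood apart as well. Adequate replicate 1 had a scaling factor of 0.690 and 7.97% of counts in small structural RNAs, against 3.31% to 4.88% elsewhere. Supplemented replicate 5 held 1177 CPM of muscle genes, against 2.86 to 35.5 CPM, and the 46.0 CPM that was lowest for alveolar type 2 genes.

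All 9 genes passed the low-count filter, which asks for about 0.531 CPM in at least 3 libraries. Csad, Suox, Mpst, Cth, Tst and Ethe1 reached that level in all 15 libraries, Sqrdl in 14, Cdo1 in 12 and Cbs in 4. Cbs met it through the 3 deficient libraries and 1 supplemented library, so a gene with its levels could enter the test only by being high there.

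Per length, in CPM per kb of effective transcript length, the genes spanned a wide range. The length used for a gene was its median over the libraries, also where single libraries are compared. Mpst had the highest median over the 15 libraries at 19.97 CPM per kb, followed by Csad at 12.5, Ethe1 at 9.60, Tst at 6.22 and Suox at 4.87. Cth followed at 2.71, Cdo1 at 1.80, Sqrdl at 1.32 and Cbs at 0.154 CPM per kb. Mpst lay above Csad, and Sqrdl above Cbs, in 15 of 15 libraries. The steps between those ends held in 11 to 13 libraries, save that Cdo1 exceeded Sqrdl in 5 of 15, so their order by median is not an order by library. For Cbs the estimated effective length ran from 473 to 2274 bases between libraries and for Sqrdl from 433 to 1687 bases, so the per-length level of these scarce transcripts is less certain.

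Promoter windows were read from the RefSeq table of assembly GRCm38.p6 for 6 of the 9 genes, not for Cth, Cdo1 or Tst. The 250 bases before the start are shown for 3 of them: Mpst, the most abundant per length, Cbs, the least abundant, and Sqrdl, whose level moved most closely with a lung marker list. Capitals mark matches, on either strand, to the E-box CACGTG, the GC box GGGCGG, the antioxidant response element TGACNNNGC, the C/EBP-ATF element TGATGNAA, the CCAAT box or the TATA box TATAAA, and no matches overlapped in these windows.
Mpst, the first of 3 listed starts, chr15:78406462-78406711, plus strand: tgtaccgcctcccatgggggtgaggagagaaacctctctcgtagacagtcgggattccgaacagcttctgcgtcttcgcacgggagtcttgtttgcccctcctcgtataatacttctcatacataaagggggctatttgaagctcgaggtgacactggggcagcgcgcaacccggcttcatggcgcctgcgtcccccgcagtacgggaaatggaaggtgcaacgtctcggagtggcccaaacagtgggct
Cbs, chr17:31637206-31637455, minus strand: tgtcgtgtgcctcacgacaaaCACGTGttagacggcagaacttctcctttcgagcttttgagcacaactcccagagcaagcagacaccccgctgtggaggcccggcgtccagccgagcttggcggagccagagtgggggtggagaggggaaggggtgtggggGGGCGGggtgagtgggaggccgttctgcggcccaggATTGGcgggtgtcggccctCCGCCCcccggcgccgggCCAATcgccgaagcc
Sqrdl, listed as Sqor, chr2:122771463-122771712, plus strand: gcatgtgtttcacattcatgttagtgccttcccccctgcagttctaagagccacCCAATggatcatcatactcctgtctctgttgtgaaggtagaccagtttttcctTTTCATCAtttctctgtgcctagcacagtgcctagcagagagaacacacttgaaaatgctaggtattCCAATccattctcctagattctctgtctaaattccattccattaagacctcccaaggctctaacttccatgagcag

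The Cbs window held 1 E-box, 2 GC boxes and 2 CCAAT boxes, which are found in 6.02%, 32.7% and 33.8% of the 32851 windows read. The Sqrdl window held 2 CCAAT boxes and 1 C/EBP-ATF element, the kind bound by ATF4, which reads as TTTCATCA on the strand printed. That element is in 3.45% of windows. The Mpst window shown held none of the 6, while that of its next listed start held 1 antioxidant response element, found in 10.2% of windows. The Sqrdl window had 0 CpG dinucleotides, a count met or undercut by 7.87% of windows, against 18 in the Mpst window and 21 in the Cbs window, where the median is 6. These matches describe letters, and binding was not measured.

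No member passed an adjusted p of 0.05 in any comparison by edgeR's quasi-likelihood test. Between deficient and adequate libraries 0 of 9 members were called, where 0.00625% of the 16001 genes tested were called. Members called were also 0 of 9 between restricted and adequate, supplemented and adequate, deficient and restricted, and deficient and supplemented libraries, where 0% of genes were called in each. Across any difference among the 4 diets they were again 0 of 9, with 0.00625% of all genes called. At an unadjusted p under 0.05 the members numbered 1, 1, 0, 3 and 1 in those 5 comparisons in the order given, against backgrounds of 15.1%, 9.17%, 9.77%, 7.44% and 5.45% of genes, and 2 for any difference, against 9.47%. Limma-voom also called 0 of 9 in every comparison, with 0 to 3 of the 16001 genes called. Over all genes DESeq2 called 585, 131, 137, 9 and 0 in those 5 comparisons, and 270 for any difference. Of the members DESeq2 called 0 of those it gave an adjusted p. It gave none to 2 members between restricted and adequate libraries, to 7 between supplemented and adequate libraries and to 1, Cbs, for any difference. Groups that did not overlap were as few: between deficient and adequate libraries 1 of 9 members lay wholly higher and 0 lower, against 7.91% and 7.96% of all genes. Between restricted and adequate libraries 0 lay higher and 1 lower, against 8.37% and 8.27%, and between supplemented and adequate libraries 0 and 0, against 2.14% and 2.24%. Between deficient and restricted libraries 1 lay higher and 0 lower, against 4.71% and 6.38%, and between deficient and supplemented libraries 1 and 0, against 1.01% and 0.9%. The member that lay lower was Cth, and the one that lay higher was Cbs each time, which passed the low-count filter through those deficient libraries, so nothing is read from its counts. In simulated data on 16001 genes, the same test recovered 66% of genes changed 4-fold and 17% of genes changed 2-fold between deficient and adequate libraries. The changed genes were drawn from those averaging above 1 CPM, so over such genes a 2-fold change would mostly be missed at this replication. Single members differ from that average, with a fitted SE in this comparison from 0.203 for Mpst to 1.26 for Cdo1.

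Cbs, the entry enzyme of transsulfuration, had 0.848, 0.552 and 3.44 CPM in deficient libraries. It had 0, 0.202 and 0.185 CPM in restricted libraries and 0.252, 0.1003 and 0.318 CPM in adequate libraries. Supplemented libraries ran from 0.0620 CPM through a median of 0.311 CPM to 0.529 CPM. The 3 deficient libraries were the 3 highest of 15, and restricted replicate 1 held 0 of 18222223 rounded counts, which allows up to 0.166 CPM at 3 counts. The margin was thin outside deficient replicate 3: 11 counts in deficient replicate 2 gave an exact Poisson 95% interval of 0.276 to 0.987 CPM, and 12 counts in supplemented replicate 1 gave 0.273 to 0.924 CPM. These intervals cover counting error only.

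Cbs averaged 1.62 ± 1.59 CPM in deficient and 0.224 ± 0.112 CPM in adequate libraries (SD, n = 3 each). Its log2 fold change between them was 2.81 (SE 1.14, edgeR adjusted p = 0.268). Against restricted libraries, at 0.129 ± 0.112 CPM (SD, n = 3), the fold change was 3.57 (SE 1.19, edgeR adjusted p = 0.649). Against supplemented libraries, at 0.323 ± 0.176 CPM (SD, n = 6), it was 2.29 (SE 0.885, edgeR adjusted p = 0.870). The libraries of deficient tumours did not overlap those of any other diet for Cbs, which was so for 34 genes or 0.212% of those tested. Since Cbs passed the filter through those same libraries, nothing is read from that share. Without deficient replicate 3, its log2 fold change was 1.62 against adequate libraries (edgeR adjusted p = 0.866), 2.39 against restricted libraries and 1.102 against supplemented libraries (edgeR adjusted p = 1 for each of these).

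Cth, which releases cysteine from cystathionine, was lowest on the restricted diet by its group mean. It had 6.82, 5.92 and 2.36 CPM in deficient libraries, 1.94, 3.68 and 2.47 CPM in restricted libraries and 6.93, 5.57 and 6.68 CPM in adequate libraries. Supplemented libraries spread widest, with 2.24 CPM at the lowest, 4.33 CPM at the median and 10.6 CPM at the highest. Every restricted library lay below every adequate library, as for 8.27% of all genes in that direction, while deficient replicate 3 lay among the restricted libraries and the other deficient libraries among the adequate ones.

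Between restricted, at 2.69 ± 0.896 CPM, and adequate libraries, at 6.39 ± 0.727 CPM (SD, n = 3 each), the log2 fold change of Cth was -1.24 (SE 0.557, edgeR adjusted p = 0.517). Leaving out any library kept it between -1.56 and -1.05. Between deficient and restricted libraries it was 0.90 (SE 0.554, edgeR adjusted p = 0.764), and between deficient and adequate libraries -0.34 (SE 0.546, edgeR adjusted p = 0.798). Leaving out deficient replicate 3 made these 1.24 and -0.0035. Cth shares its strand with an overlapping unnamed transcript, Gm43314, in GENCODE M21.

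**Figure D1:**
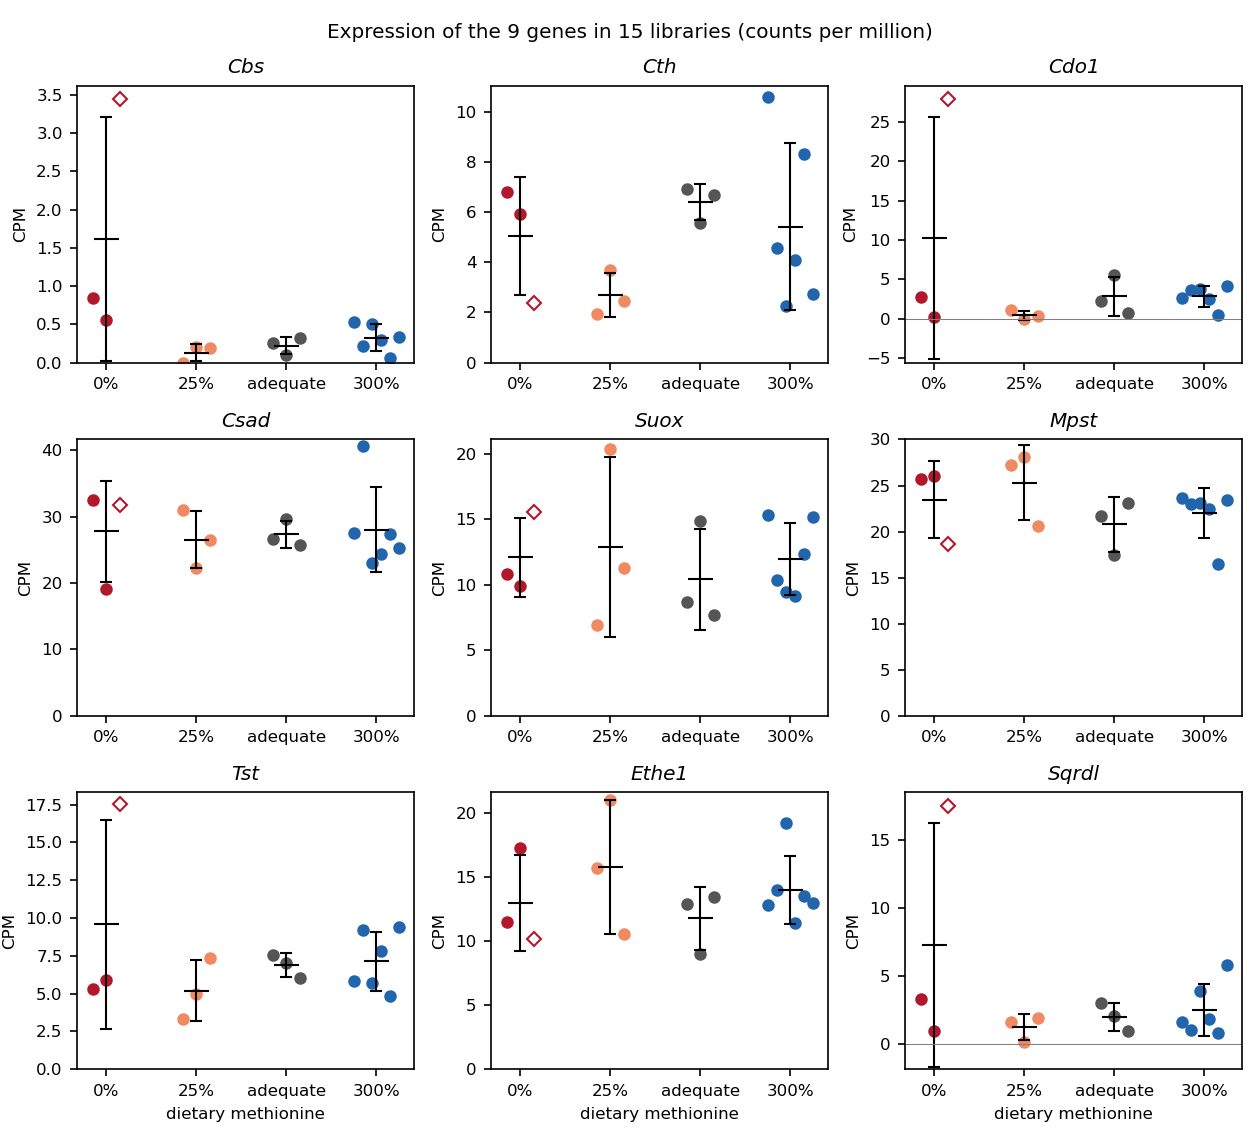
CPM of each gene (y axis) in every library by dietary methionine (x axis), with dots for libraries, a black dash for the mean and bars for SD (n = 3, 3, 3 and 6); the open diamond is deficient replicate 3. That library is the highest of 15 for Cbs, Cdo1, Tst and Sqrdl, at 3.44, 27.9, 17.6 and 17.6 CPM. All genes but Cbs and Cth overlap between all diets.

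Cdo1, which sets the rate of cysteine oxidation, varied more than any other member. It had 2.72, 0.201 and 27.9 CPM in deficient libraries, 1.11, 0 and 0.308 CPM in restricted libraries and 2.27, 5.57 and 0.728 CPM in adequate libraries. Supplemented libraries ran from 0.496 CPM through a median of 3.13 CPM to 4.17 CPM. Deficient replicate 3 was 5.01 times the next highest library, deficient replicate 2 was the second lowest, and the 0 counts of restricted replicate 2 allow up to 0.151 CPM. The deficient libraries thus held the highest and the second lowest value, and overlapped those of every other diet.

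The SD of Cdo1 in deficient libraries, at 15.3 CPM, exceeded its mean of 10.3 CPM (n = 3), against 2.85 ± 2.47 CPM in adequate libraries (SD, n = 3). The log2 fold change was 4.43 between deficient and restricted libraries (SE 1.44, edgeR adjusted p = 0.649) and 1.84 between deficient and adequate libraries (SE 1.26, edgeR adjusted p = 0.502). Without deficient replicate 3 these were 1.64 and -0.95, so the sign of the second rests on 1 library. Between restricted and adequate libraries the log2 fold change of Cdo1 came to -2.59 (SE 1.36, edgeR adjusted p = 0.607), which stayed between -4.24 and -1.65 when any library was left out.

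Csad, which makes hypotaurine from the product of Cdo1, was among the most even of the 9. It averaged 27.8 ± 7.57 CPM in deficient, 26.6 ± 4.36 in restricted, 27.3 ± 1.99 in adequate (SD, n = 3 each) and 28.04 ± 6.39 CPM in supplemented libraries (SD, n = 6). Its log2 fold changes lay between -0.04 and 0.07 over the 5 comparisons. Csad overlaps Zfp740 on the opposite strand in GENCODE M21. Whether the counting told reads of the pair apart is not known, since the sources used here do not give its strand setting.

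Suox, the molybdenum enzyme that clears sulfite, averaged 12.1 ± 3.01 CPM in deficient, 12.9 ± 6.85 in restricted, 10.4 ± 3.88 in adequate (SD, n = 3 each) and 11.96 ± 2.77 CPM in supplemented libraries (SD, n = 6). Its highest and lowest values, 20.4 and 6.97 CPM, were both in restricted libraries. The spread within that diet therefore spanned the values of every other diet.

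Mpst, which moves sulfur from mercaptopyruvate to acceptor thiols, averaged 23.5 ± 4.18 CPM in deficient, 25.3 ± 4.06 in restricted, 20.8 ± 2.96 in adequate (SD, n = 3 each) and 22.0 ± 2.75 CPM in supplemented libraries (SD, n = 6). Its highest library was 1.70 times its lowest, the smallest such ratio of the 9 genes. Log2 fold changes of Mpst were 0.29 between restricted and adequate libraries (SE 0.203, edgeR adjusted p = 0.731) and 0.18 between deficient and adequate libraries (SE 0.203, edgeR adjusted p = 0.709).

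Tst encodes rhodanese, a mitochondrial enzyme that transfers sulfur to thiophilic acceptors such as cyanide. It had 5.30, 5.87 and 17.6 CPM in deficient libraries, 3.32, 4.94 and 7.34 CPM in restricted libraries and 7.56, 7.02 and 6.00 CPM in adequate libraries. Supplemented libraries ran from 4.84 CPM through a median of 6.80 CPM to 9.43 CPM. Deficient replicate 3 was the highest, at 1.86 times the next library, and the other deficient libraries lay below all 3 adequate ones.

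The log2 fold change of Tst was 0.48 between deficient and adequate libraries (SE 0.441, edgeR adjusted p = 0.628) and -0.30 without deficient replicate 3. Tst and Mpst are neighbours on chromosome 15 and lie on opposite strands. No relation of their levels passed over the 15 libraries (Pearson r = -0.42, permutation p = 0.117, adjusted p = 0.324; Spearman rho = -0.43, permutation p = 0.109, adjusted p = 0.372), and r was -0.83 without adequate replicate 2 and supplemented replicate 5, those farthest from the median of Mpst. It was -0.28 without deficient replicate 3 alone (adjusted p = 0.721).

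Ethe1, the mitochondrial persulfide dioxygenase, averaged 12.99 ± 3.75 CPM in deficient, 15.8 ± 5.25 in restricted, 11.8 ± 2.45 in adequate (SD, n = 3 each) and 14 ± 2.69 CPM in supplemented libraries (SD, n = 6). Its log2 fold change between restricted and adequate libraries was 0.42 (SE 0.292, edgeR adjusted p = 0.720), the largest of its 5. Ethe1 overlaps Zfp575 on the opposite strand in GENCODE M21, with the same limit as for Csad.

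Sqrdl, the mitochondrial quinone reductase that takes up hydrogen sulfide, had 3.35, 1.00 and 17.6 CPM in deficient libraries. It had 1.66, 0.202 and 1.97 CPM in restricted libraries, and 3.02, 2.11 and 0.955 CPM in adequate libraries. Supplemented libraries ran from 0.868 CPM through a median of 1.75 CPM to 5.81 CPM. Deficient replicate 3 was 3.02 times the next library, and the other deficient libraries fell inside the range of the adequate and supplemented ones together.

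The log2 fold change of Sqrdl was 2.51 between deficient and restricted libraries (SE 1.02, edgeR adjusted p = 0.649) and 1.84 between deficient and adequate libraries (SE 0.988, edgeR adjusted p = 0.389). Without deficient replicate 3 these were 0.78 and 0.12. Deficient replicate 3 was the highest of 15 libraries for 4 of the 9 members, against 22.9% of all genes tested, and over 2 times the highest other library for 3 of the 9, against 8.09%. Both counts include Cbs, which passed the low-count filter through the deficient libraries, so nothing is read from these shares. For Cth, Mpst and Ethe1 deficient replicate 3 ranked 13, 13 and 14 from the top.

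**Figure D2:**
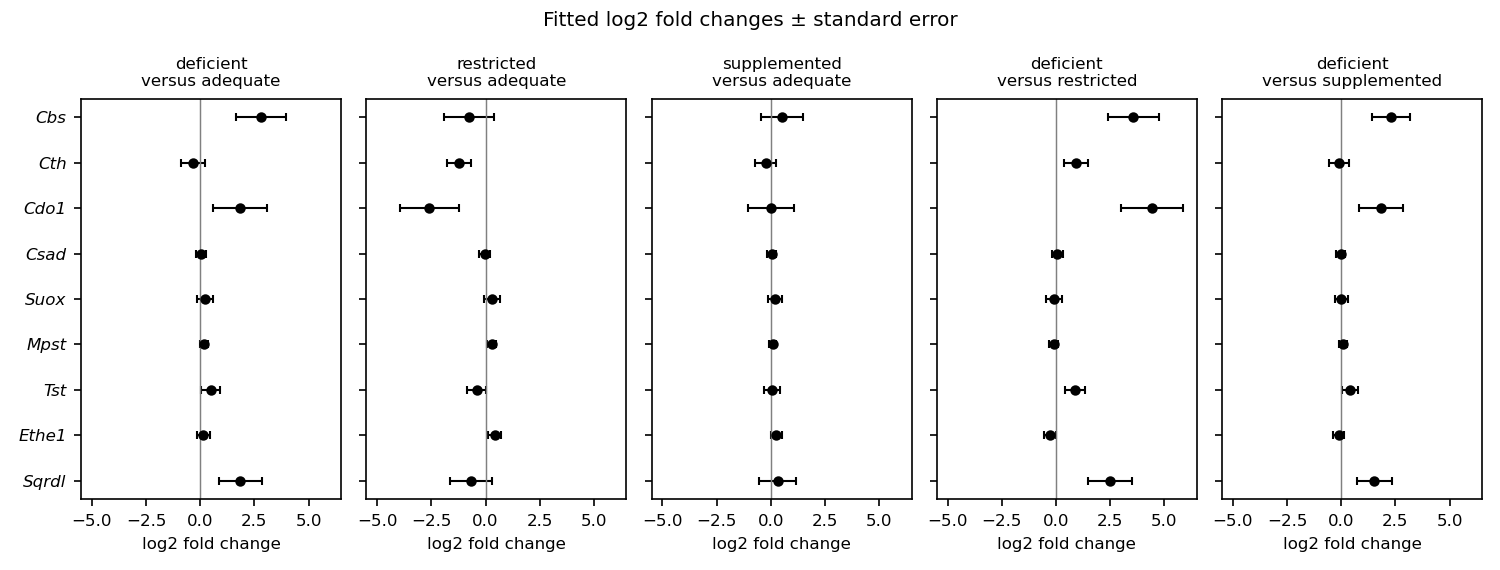
Fitted log2 fold changes (x axis) of the 9 genes (y axis) in 5 comparisons, first-named diet over second, with points for estimates and bars for standard errors. Cbs, Cdo1 and Sqrdl have the widest bars and Csad and Mpst the narrowest; none of the 45 passed an adjusted p of 0.05.

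Over the members as a list, 8 of 9 fold changes were above 0 between deficient and adequate libraries, where 52.9% of all genes were, with a median log2 fold change of 0.21, against a median of 0.04 over all genes. That count was 4 of 9 and the median -0.0035 without deficient replicate 3. Between restricted and adequate libraries 3 of 9 were above 0, against 50.4% of all genes, with a median of -0.40, against 0.00 over all genes. Between supplemented and adequate libraries 8 of 9 were above 0, against 52.9% of all genes, but the median was 0.08, against 0.03 over all genes. Between deficient and restricted libraries the median was 0.88 with 6 of 9 above 0, against 0.02 and 51.9% over all genes, and without deficient replicate 3 it was 0.10 with 6 of 9 above 0. Between deficient and supplemented libraries it was 0.09 with 6 of 9 above 0, against 0.02 and 52.5%, and without that library -0.12 with 4 of 9 above 0. These comparisons share libraries. The counts and medians include Cbs, which passed the low-count filter through the 3 deficient libraries and 1 supplemented library. Its place above 0 in the comparisons of deficient libraries thus follows from the filter, and nothing is read from the list counts there.

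Whether the members varied together was asked over all 15 libraries with log2 CPM and two-sided permutation tests (100000 permutations), adjusted over 36 pairs. Cdo1 and Sqrdl were the pair that passed, at Pearson r = 0.85 (permutation p = 0.00015, adjusted p = 0.0054) and Spearman rho = 0.76 (permutation p = 0.00131, adjusted p = 0.0472). Without restricted replicate 2 and deficient replicate 3, those farthest from the median of Cdo1, r was 0.59. With diet means removed r was 0.86, and without deficient replicate 3 alone it was 0.77 (adjusted p = 0.0364). Cbs and Cth, the consecutive steps of transsulfuration, had r = -0.03 (permutation p = 0.931, adjusted p = 0.998) and rho = 0.11 (permutation p = 0.696, adjusted p = 0.823).

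Mpst and Ethe1 had r = 0.64 (permutation p = 0.00991, adjusted p = 0.0999) and rho = 0.60 (permutation p = 0.0206, adjusted p = 0.355). That pair reached an adjusted p of 0.0223 at r = 0.78 when supplemented replicate 5, the lowest library for Mpst, was left out, and without deficient replicate 3 it had r = 0.60 (adjusted p = 0.418). Correlations between libraries share depth, scaling and tissue make-up, whose parts were not tested apart.

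The 9 genes were then set against the levels of 10 marker lists and of an ATF4 target list, each the mean log2 CPM of its genes, in 99 relations adjusted together. The ATF4 list, targets of the transcription factor that responds to amino acid shortage, was added to this family after values had been seen. Of the 99, 23 passed, 15 of them positive. Sqrdl passed with 8 lists, Cdo1 with 6, Tst with 4, Cth with 3, Cbs and Ethe1 with 1 each, and Csad, Suox and Mpst with 0. Without deficient replicate 3 the number passing was 1.

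The relation that remained was of Sqrdl with the alveolar type 1 and airway list, at r = 0.89 (permutation p = 4e-05, adjusted p = 0.00396) and rho = 0.88 (permutation p = 7e-05, adjusted p = 0.00347). It was 0.86 without supplemented replicate 5 and deficient replicate 3, 0.91 within diets, and 0.82 without deficient replicate 3 alone (adjusted p = 0.0238). Sqrdl was also tied to the alveolar type 2 list at r = 0.81 (permutation p = 0.00043, adjusted p = 0.0146) and rho = 0.89 (permutation p = 5e-05, adjusted p = 0.00347), with r = 0.89 without supplemented replicate 5 and restricted replicate 2. Without deficient replicate 3 the adjusted p of that relation was 0.0515 at r = 0.77.

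Cdo1 followed the alveolar type 2 list at r = 0.78 (permutation p = 0.00074, adjusted p = 0.0146) and rho = 0.82 (permutation p = 0.00035, adjusted p = 0.0115). It was 0.85 without supplemented replicate 5 and restricted replicate 2, 0.80 within diets, and 0.72 without deficient replicate 3 (adjusted p = 0.113). It ran against the proliferation list at r = -0.77 (permutation p = 0.00053, adjusted p = 0.0146; rho = -0.68, permutation p = 0.00636, adjusted p = 0.0728), and r was -0.64 without adequate replicate 2 and deficient replicate 3. With the alveolar type 2 level as a covariate the log2 fold change of Cdo1 between deficient and adequate libraries was 0.21, against 1.84 without it, and that of Sqrdl was 0.83, against 1.84. That of Cbs was 2.23, against 2.81. With the covariate 0 of 9 members had an edgeR unadjusted p under 0.05 in this comparison, against 1 of 9, Cbs, without it. Of all 16001 genes tested, 2261 had such a p with the covariate and 2422 without it, so nothing is read from the member count. The alveolar type 2 level was 8.96 in deficient replicate 3 and at most 7.15 in the other libraries, so diet and lung content cannot be told apart by these values.

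**Figure D3:**
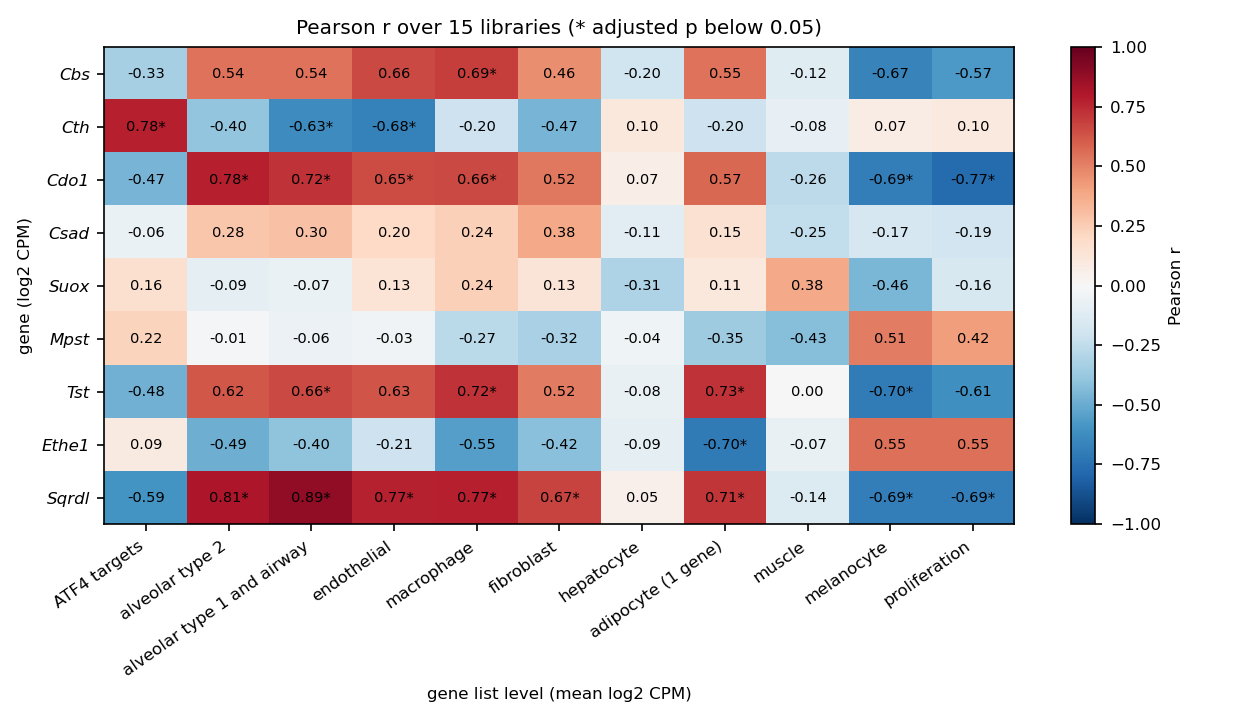
Pearson r (colour and printed value) of each gene (y axis, log2 CPM) with the level of each gene list (x axis, mean log2 CPM) over 15 libraries; a star marks an adjusted p below 0.05 over the 99 relations. Sqrdl and Cdo1 carry 8 and 6 stars, and Csad, Suox and Mpst carry 0.

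Cth differed from these in its direction. It went with the ATF4 target list, of which it is not a part here, at r = 0.78 (permutation p = 0.00068, adjusted p = 0.0146) and rho = 0.74 (permutation p = 0.00233, adjusted p = 0.0515), with r = 0.72 without supplemented replicate 3 and deficient replicate 3 and 0.89 within diets. It ran against the endothelial list at r = -0.68 (permutation p = 0.00251, adjusted p = 0.0249) and rho = -0.74 (permutation p = 0.0026, adjusted p = 0.0515), with r = -0.67 without supplemented replicate 5 and deficient replicate 3. Leaving out deficient replicate 3 alone gave 0.76 for the ATF4 list (adjusted p = 0.0515) and -0.71 for the endothelial list (adjusted p = 0.113).

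Tst and Cbs were tied to the macrophage list, at r = 0.72 (permutation p = 0.00668, adjusted p = 0.0418; rho = 0.48, permutation p = 0.0735, adjusted p = 0.251) and r = 0.69 (permutation p = 0.0107, adjusted p = 0.0479; rho = 0.59, permutation p = 0.0231, adjusted p = 0.120). Without adequate replicate 3 and deficient replicate 3 these were 0.48 and 0.46. They were, without deficient replicate 3 alone, 0.41 (adjusted p = 0.503) and 0.32 (adjusted p = 0.662), so both rest on that library. The relation of Ethe1 that passed was with Cidec, the 1 adipocyte gene tested, at r = -0.70 (permutation p = 0.0034, adjusted p = 0.0281; rho = -0.67, permutation p = 0.00781, adjusted p = 0.0728). Tst and Sqrdl went with Cidec in the opposite direction, at r = 0.73 (permutation p = 0.00128, adjusted p = 0.0197; rho = 0.66, permutation p = 0.00863, adjusted p = 0.0728) and r = 0.71 (permutation p = 0.00206, adjusted p = 0.0227; rho = 0.68, permutation p = 0.00665, adjusted p = 0.0728). Leaving out the 2 libraries farthest from the median of Cidec gave -0.74 for Ethe1, 0.59 for Tst and 0.60 for Sqrdl. With only deficient replicate 3 left out these were -0.67, 0.57 and 0.56 (adjusted p = 0.148, 0.240 and 0.240).

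**Figure D4:**
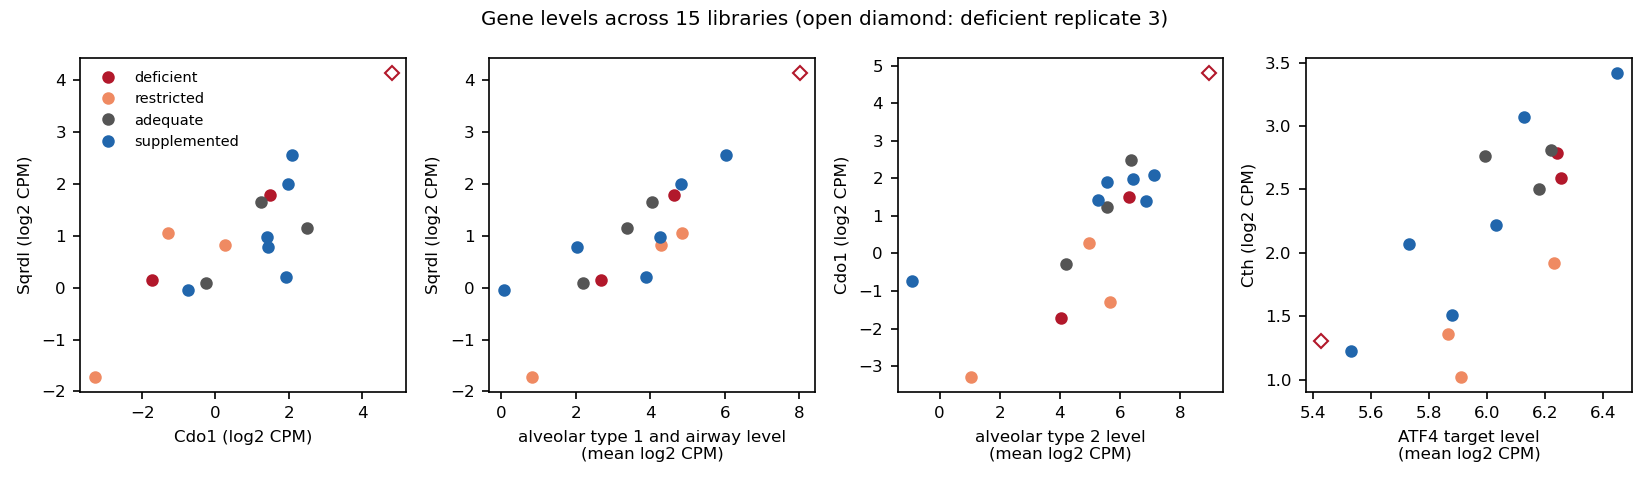
Sqrdl against Cdo1, Sqrdl against the alveolar type 1 and airway level, Cdo1 against the alveolar type 2 level and Cth against the ATF4 target level, all on log2 CPM axes with a point per library. The open diamond, deficient replicate 3, is at the top right of the first 3 panels and at the lower left of the fourth; r is 0.85, 0.89, 0.78 and 0.78.

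Hepatocyte genes, whose cells hold much of this pathway, were low. Of the 8 listed, Alb had 0 counts in 9 of 15 libraries and at most 22.9 CPM, in adequate replicate 1. Serpina1a, Fgb and Apoa1 were at 0 in 12, 11 and 7 libraries, and Ttr and Apoa2 in 2 and 1. Each of these also peaked in adequate replicate 1. Cyp2e1 had counts in every library, from 3.84 to 60.4 CPM, and peaked in restricted replicate 2. Ahsg, at 0 in 1 library, peaked in supplemented replicate 3 at 6.64 CPM. No member passed with the hepatocyte list. The mean log2 CPM of that list was 2.71, 1.55 and 0.76 in adequate libraries and below 0 in the other 12. Its median log2 fold change over 8 genes was -3.24 between deficient and adequate, -1.85 between restricted and adequate and -2.94 between supplemented and adequate libraries, against -0.06 between deficient and supplemented libraries. Genes at 0 in most libraries can pass the low-count filter only through the few where they are present. For Alb, Fgb and Serpina1a these include adequate replicate 1, so nothing is read from these medians.

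Among 11865 named genes whose log2 CPM averaged 1 or more, those closest in pattern were found for each member by Pearson r over the 15 libraries. For Sqrdl they were Gpc3, Clec14a and Slc16a9 at 0.95, 0.94 and 0.94, and for Cdo1 Clec14a, AA986860 and Gpx3 at 0.94, 0.93 and 0.92. Clec14a, an endothelial surface lectin, was common to both, and each of these genes peaked in deficient replicate 3. Those of Tst were Il6ra, Fam13a and Lyn at 0.89, 0.88 and 0.87, and those of Cbs were Pde5a, Msrb3 and Cmtm6 at 0.90, 0.86 and 0.86, again highest in that library.

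The closest genes to Cth were Etf1, Yif1b and Golt1b at 0.92, 0.89 and 0.88, and those to Mpst were Mogat2, Tmem209 and Pfkl at 0.92, 0.87 and 0.83. For Ethe1 they were Scpep1, Lmf1 and Slc46a1 at 0.84, 0.84 and 0.81. Csad and Suox had weaker neighbours. Those of Csad included Mocos and Zcchc24 at 0.77 and 0.74, Mocos being a molybdenum cofactor sulfurase. Those of Suox were Prrg4, Rabggta and Tubb2a at 0.76, 0.76 and 0.70.

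Genes around the pathway were read from 7 lists, in which 0 genes were called in any comparison. In the methionine cycle, 10 of 11 listed genes were tested. Mat2b, the regulatory subunit of S-adenosylmethionine synthetase, averaged 20.4 ± 1.39 CPM in deficient, 21.4 ± 1.43 in restricted, 27.3 ± 6.33 in adequate (SD, n = 3 each) and 18.2 ± 2.75 CPM in supplemented libraries (SD, n = 6; edgeR adjusted p = 0.469 for any difference). Ahcyl2, a relative of the enzyme that makes homocysteine, averaged 87.5 ± 20.7, 72.6 ± 2.83, 58.2 ± 10.2 and 82.2 ± 15.7 CPM in deficient, restricted, adequate and supplemented libraries (edgeR adjusted p = 0.550). Bhmt, a liver enzyme that returns homocysteine to methionine, was at 0 in all 6 supplemented libraries and at most 2.40 CPM elsewhere (edgeR adjusted p = 0.490).

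Cofactor genes were tested for 6 of 7 entries. Mocs2, which makes the molybdenum cofactor that Suox needs, averaged 10.1 ± 0.865 CPM in deficient, 10.2 ± 3.62 in restricted, 17.9 ± 4.06 in adequate (SD, n = 3 each) and 11.2 ± 2.97 CPM in supplemented libraries (SD, n = 6; edgeR adjusted p = 0.516). Pdxk, a kinase in the supply of the pyridoxal phosphate that Cbs, Cth and Csad need, had edgeR adjusted p = 0.668. Adequate libraries thus had the highest mean of Mocs2, while Suox itself had its lowest mean there.

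In the taurine list, 5 of 6 were tested. Fmo1, which oxidises hypotaurine to taurine, averaged 76.3 ± 14.8 CPM in deficient, 52.1 ± 9.23 in restricted, 57.8 ± 14.2 in adequate (SD, n = 3 each) and 52.5 ± 6.83 CPM in supplemented libraries (SD, n = 6; edgeR adjusted p = 0.499). Slc6a6, the taurine transporter, averaged 297.7 ± 24.4, 317.5 ± 44.6, 523.0 ± 276 and 337.2 ± 63.6 CPM in the same order (edgeR adjusted p = 0.561). Got2, an aminotransferase that acts on cysteine sulfinate, had edgeR adjusted p = 0.762.

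All 12 genes of cystine uptake and glutathione were tested. Gclc, the catalytic subunit of the first enzyme of glutathione synthesis, averaged 36.2 ± 18.9 CPM in deficient, 18.9 ± 6.55 in restricted, 26.4 ± 6.89 in adequate (SD, n = 3 each) and 25.3 ± 8.39 CPM in supplemented libraries (SD, n = 6; edgeR adjusted p = 0.644). Ggt5 and Chac2, which break down extracellular and intracellular glutathione or its conjugates, had edgeR adjusted p = 0.658 and 0.692. In sulfur transfer, 13 of 14 were tested, and Txn1, the cytosolic thioredoxin that reduces acceptors of Mpst, averaged 129.4 ± 25.0, 149.8 ± 15.5, 200.6 ± 52.3 and 157.7 ± 26.5 CPM in deficient, restricted, adequate and supplemented libraries (edgeR adjusted p = 0.552). Papss1, which activates sulfate, and Txn2, the mitochondrial thioredoxin, had edgeR adjusted p = 0.635 and 0.670.

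All 7 genes of coenzyme A synthesis, a further use of cysteine, were tested. Pank3, Coasy and Ppcdc had the smallest p among them, with edgeR adjusted p = 0.595, 0.700 and 0.757. Of the 15 ATF4 targets, all tested, Vldlr had the smallest p, with 10.2 ± 9.84 CPM in deficient, 1.38 ± 0.498 in restricted, 6.41 ± 3.75 in adequate (SD, n = 3 each) and 4.71 ± 2.96 CPM in supplemented libraries (SD, n = 6; edgeR adjusted p = 0.442). Nupr1 and Atf5, stress-responsive nuclear proteins, had edgeR adjusted p = 0.584 and 0.644. The ATF4 list as a whole had a median log2 fold change of -0.05 between deficient and adequate libraries, with 6 of 15 above 0. Over all genes the median was 0.04, with 52.9% above 0. Among the 5 comparisons the ATF4 median ran from -0.14 between supplemented and adequate libraries, with 4 of 15 above 0, to 0.003 between deficient and supplemented libraries, with 8 of 15.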

How the data were processed

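Per the labels' protocols, ribosomal RNA was removed and stranded libraries were made. Per the submitters' processing notes, Bowtie2 2.2.9, RSEM 1.30 and edgeR were used on build NCBIM37; strand setting and annotation release: not given in the sources used here. The deposited values are expected counts per gene from the authors' RSEM run, and the authors' effective lengths. Expected counts were rounded, filtered with filterByExpr (16001 of 37620 genes kept), scaled by TMM and tested with edgeR 4.0.16 (R 4.3.3) in a single quasi-likelihood fit of 4 diet means (11 residual degrees of freedom), with Benjamini-Hochberg adjustment at 0.05. SE is the fold change divided by the root of F. Log2 CPM used a prior count of 2. DESeq2 1.42.0 and limma-voom 3.58.1 were alternatives. Steps were tested on simulated data. Within-diet library pairs differed by a chi-square of 27.4 to 337.5 per degree of freedom, more than counting noise, so no pair was 1 library counted again. Symbols were matched by ID (154 of 156 list entries, 147 tested). All 9 genes are named, with up to 3 genes per pathway list having the smallest p for any diet difference, and the 3 closest genes in pattern per member. Some genes this rule takes are not reported here. Members and lists were chosen with earlier results of these data known. Coordinates are given only for RefSeq promoter windows (GRCm38.p6).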

Additional observations from a re-analysis of the deposited data

Results flagged for a closer look

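In the 6 supplemented libraries, Csad stood apart at 40.6 CPM in replicate 2, whose gap to the next library was 0.743 of the group's range, past Dixon's 95% critical value for 6 samples. Mpst stood apart at 16.5 CPM in replicate 5, low by 0.838 of the range, and Ethe1 at 19.2 CPM in replicate 3, high by 0.670 of the range. Chance gives such a gap in about 1 in 20 groups, and their causes were not tested.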

How the results depend on the processing

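Members called stayed at 0 in the settings run, of 9 tested except with only the groups compared, where Cbs was not tested and 8 were, between restricted and adequate, supplemented and adequate, and deficient and supplemented libraries. That setting was not run for any difference, and DESeq2 left some members without an adjusted p. Counts over all genes moved. Between deficient and adequate libraries 1 gene was called, against 585 with DESeq2, 0 with no filter, with only the groups compared or with the alveolar type 2 covariate, 5 without adequate replicate 1, supplemented replicate 5 and deficient replicate 3 together, and 0 to 4 leaving out 1 library. Between restricted and adequate libraries 0 became 131, 29 with the covariate, 66 without those 3 and 0 to 5 leaving out 1. Between supplemented and adequate libraries 0 became 137, 3 with limma-voom and 2 without those 3, and between deficient and restricted libraries 0 became 9 with DESeq2. For any difference 1 became 270, 0 with limma-voom, 8 with no filter, 2 with the covariate, 3 without those 3 and 0 to 2 leaving out 1. The cause was not tested. Between deficient and adequate libraries the log2 fold change of Cdo1 ran from -0.95 (without deficient replicate 3) to 2.77 and that of Tst from -0.30 (without the same library) to 0.73 leaving out 1, and without those 3 libraries Cdo1 was at -1.11, Tst at -0.23 and Cth at 0.053. Settings for correlations were chosen after seeing the data. Member pairs passing went from 1 to 0 without those 3 libraries and lay between 1 and 2 leaving out 1. List relations passing went from 23 to 3 without those 3 and lay between 1 and 26 leaving out 1: 1 without deficient replicate 3, 8 without restricted replicate 2, 13 without supplemented replicate 5 and 14 without supplemented replicate 4. No paired analysis was possible because the labels carry no replicate numbers, those used here only naming libraries in accession order. Depth limits Cbs most, with 144 counts over 15 libraries.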
